A study of Mus musculus with 48 samples.

Results

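Stretched differentiated C2C12 cells were compared with themselves over time: the 4 libraries taken at 6 h of stretching against the 4 taken at 1 h, which are 8 of the 48 libraries in the series. C2C12 is an established mouse myoblast line whose cells fuse into multinucleated muscle cells when they differentiate. The cells had been differentiated on collagen-coated flexible plates and were deformed equally in both directions of the membrane in repeated cycles, and RNA was taken as soon as the stretching ended. The 1 h group holds replicates 4, 7, 8 and 9 and the 6 h group replicates 7, 8, 9 and 10. Non-stretched differentiated cells were collected at the same hours, again with 4 libraries at 1 h and 4 at 6 h, so the passage of time in culture could be measured apart from stretching. All groups are of 1 cell line, with no added agent in the labels. By the study's methods the differentiated samples came from independent experiments, of which 1 gave 2 separate samples and the others 1 each. The labels carry a code for each experiment. These codes are B17, B25 and B28 for stretched cells at 1 h. In the other differentiated groups they are only B25 and B28, with 2 libraries each. Libraries of 1 experiment entered the tests as separate samples, so the p-values measure the spread between these libraries, part of which may be technical.

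Mechanical deformation is sensed at adhesions, the actin cytoskeleton and membrane channels, and it activates MAP kinases and the transcriptional coactivators YAP and MRTF. Immediate early genes such as Fos and Egr1 are transcribed within minutes of such a signal without new protein synthesis, and their short-lived RNAs fall again when the signal fades. Later changes in such cells commonly involve genes of lipid synthesis, protein folding and the matrix. The comparison of 6 h with 1 h asks which part of the response had faded and which had built up.

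The 8 libraries hold between 55358603 and 69053808 counts, and the 8 non-stretched libraries of the same hours between 55589577 and 65981268. Levels below are CPM, the counts of a gene relative to the total of its library, scaled for library composition. Differences are log2 fold changes of 6 h against 1 h with their standard error (SE). Markers of differentiated muscle were high in every one of the 8 libraries: Myog lay between 711 and 943 CPM and Myh3 between 3845 and 4784 CPM. Summed over the 10 muscle markers, the level spanned 14720 to 20930 CPM at 1 h and 16010 to 23610 CPM at 6 h. The widest of these was titin (Ttn), from 1679 to 9904 CPM over the 8 libraries. Of the defining markers of other cell types, Adgre1, Tie1 and Ibsp had 0 counts in all 8 libraries, Adipoq and Ptprc had at most 1 and Pecam1 at most 6. Other members were detected: Pparg at 331 to 458 counts, Dmp1 at 221 to 269, Itgam at 59 to 101, Vwf at 42 to 73 and Cd68 at 19 to 44. Summed over tested members only, the adipocyte list, which is then Pparg alone, reached at most 6.70 CPM. The endothelial list reached at most 1.71 CPM and the macrophage list at most 2.31 CPM. The osteoblast list, mostly Runx2, spanned 50.9 to 72.6 CPM at 1 h and 41.0 to 50.3 CPM at 6 h.

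One library stood apart. On the first principal component of the 8 libraries, which held 32.5% of the variance of the 500 most variable genes, 1 h replicate 4 lay at -22.39, the other 1 h libraries between -9.79 and -7.68, and the 6 h libraries between 9.13 and 16.39. No other library here came from the experiment of replicate 4, named B17 in the labels, while replicates 7 and 8 belong to B25 and replicates 9 and 10 to B28. It also had the highest levels of the cycling-cell genes Mki67 and Top2a, at 226 and 220.9 CPM. The list of undifferentiated muscle cell markers, which holds both, summed to 780 CPM in it. The lowest 1 h library had 477 CPM, and the 6 h libraries 383 to 410 CPM. Myf5, another member, was lowest in replicate 4, at 17.26 CPM. Pax7 and Cd34, also members, were detected in all 8 libraries, at 27.83 to 36.79 and 38.38 to 48.55 CPM. Counts of calls and many fold changes of 6 h against 1 h are therefore given with and without this library. For single genes, differences from the non-stretched change and effects of stretching are given only with this library. Its experiment and its own response cannot be told apart.

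Genes were called where the adjusted p was below 0.05 and the log2 fold change reached 0.58 in either direction. By this rule 356 genes (2.31% of the 15407 tested) were upregulated at 6 h against 1 h and 491 (3.19%) were downregulated. Without 1 h replicate 4, 373 (2.39% of 15576) were upregulated and 451 (2.9%) downregulated, and 303 of the 356 and 360 of the 491 were still called in the same direction. The median log2 fold change over all genes was -0.005. Within B25, with 2 libraries at each time, 356 of the upregulated and 491 of the downregulated genes changed in the called direction, and within B28, with 1 library at 1 h and 2 at 6 h, 356 and 489 did. These libraries took part in the calls. The libraries of the 2 times did not overlap for 337 upregulated and 446 downregulated genes, where 15.5% and 14.1% of all tested genes separate in these directions.

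Non-stretched cells showed 0 upregulated and 0 downregulated genes (0.0% of 15570 tested) between the same hours by edgeR's quasi-likelihood test, with a lowest adjusted p of 0.0541. There were 1926 genes at an unadjusted p under 0.05, and DESeq2 called 3 up and 21 down. The change with time was then tested against the non-stretched change in one model of 16 libraries. It was more positive in stretched cells for 171 genes (1.07% of 15981) and more negative for 175 (1.1%). Of the 356 upregulated genes 147 carried such a difference, and of the 491 downregulated genes 146 did. Without stretched 1 h replicate 4 there were 191 more positive and 213 more negative genes. The count of more negative genes fell to 105 without stretched 6 h replicate 7 and to 112 without non-stretched 6 h replicate 8. The non-stretched counts rose to 2 up and 31 down without 1 h replicate 7. Non-stretched cells moved the same way for 263 of the 348 upregulated genes tested in them and for 399 of the 485 downregulated ones, but by a median log2 fold change of 0.10 and -0.18, against 0.77 and -0.79 in stretched cells.

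**Figure D1:**
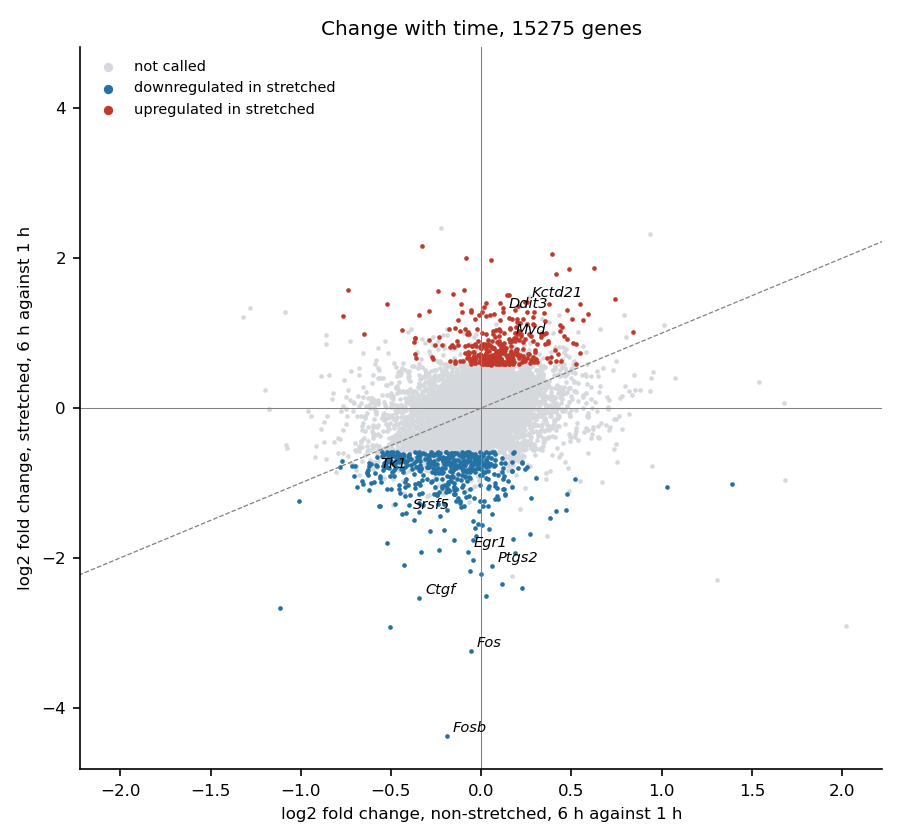
Each point is one of 15275 genes, with the log2 fold change of 6 h against 1 h in non-stretched cells on the horizontal axis and in stretched cells on the vertical axis, which has a wider range; the dashed line marks equal change. Fosb (-4.38 and -0.19) and Fos (-3.24 and -0.06) lie far below the line, while Tk1 (-0.86 and -0.59) lies near it.

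Genes reached their 6 h level by different routes. Of the 356 upregulated genes, 143 had all 4 stretched libraries below all 4 non-stretched libraries at 1 h, and 155 had them all above at 6 h. Both held for 53 genes, only the first for 90, only the second for 102 and neither for 111. Over all tested genes the first pattern was seen in 3.72% and the second in 14.0%. The called genes were chosen on these same stretched libraries, which favours both patterns, so the counts describe them and test nothing. Of the 491 downregulated genes, 75 were above the non-stretched libraries at 1 h (2.7% of all genes) and 222 below them at 6 h (12.3% of all genes), with 22 genes showing both. Libraries stretched for 3 h, which took no part in the calls, had a mean log2 level between those at 1 h and 6 h for 293 of the 356 and 384 of the 491 genes. It lay past the 6 h level for 25 and 19, and on the far side of the 1 h level for 38 and 88. The share over all genes was not computed.

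**Figure D2:**
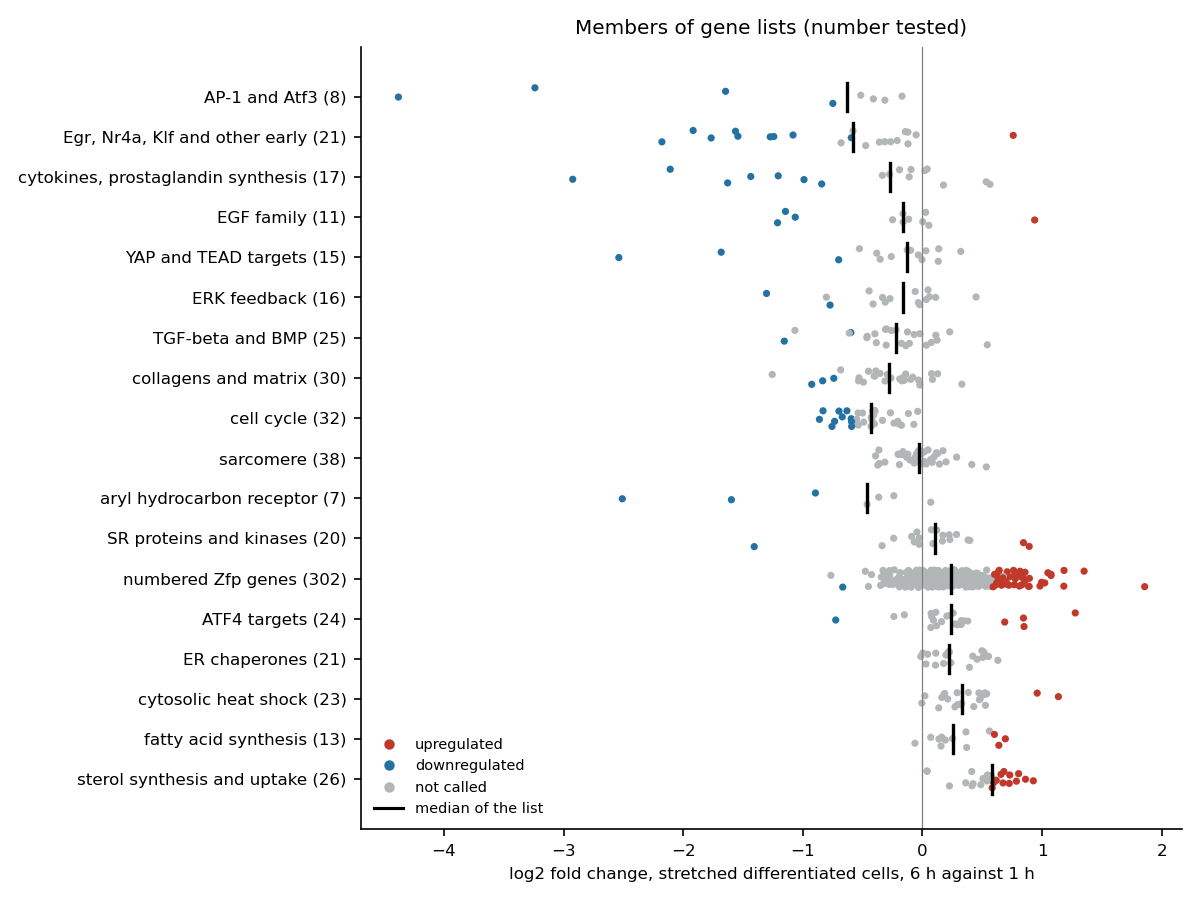
The log2 fold change of 6 h against 1 h in stretched differentiated cells is plotted for every tested member of 18 gene lists, 1 point a gene, with called genes in colour and the list's median as a black bar. Early transcription factors lie to the left, sterol genes to the right, and the 38 sarcomere genes sit around 0.

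The largest falls of single named genes were those of Fosb and Fos, which are early transcription factors. Such factors include the AP-1 subunits, which pair to bind DNA, and the Egr, Nr4a and Klf factors with their companions. Over all genes tested, 3.19% were downregulated and 2.31% upregulated, the shares to set beside the counts in each list below. In the AP-1 list, 4 of 8 members were downregulated and 0 upregulated, with a median log2 fold change of -0.63. In the list of Egr, Nr4a, Klf and other early genes, 9 of 21 were downregulated and 1, Ier5l, upregulated, with a median of -0.58. Without replicate 4 the counts were 3 of 8 and 8 of 21, with medians of -0.44 and -0.38.

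Fosb (chr7:19302696-19310051 in mm10), an AP-1 subunit, showed the largest fall of all named genes. Its level was 65.0, 21.5, 18.6 and 20.8 CPM in 1 h replicates 4, 7, 8 and 9, and 1.45, 1.63, 1.53 and 1.41 CPM in 6 h replicates 7 to 10. The groups lay far apart, and within the 1 h group replicate 4 was well above the rest. The log2 fold change was -4.38 (SE 0.45, adjusted p = 0.000428) and -3.75 without replicate 4. In non-stretched cells Fosb stayed between 1.46 and 2.12 CPM at both times, so the 6 h libraries lay in the lower part of that range or just under it. By 3 h its level had already dropped to between 2.06 and 4.93 CPM.

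Fos (chr12:85473890-85477273), the partner of the Jun proteins in AP-1, read 86.9, 19.9, 21.6 and 30.7 CPM at 1 h and 4.07, 4.65, 3.48 and 4.51 CPM at 6 h, with a log2 fold change of -3.24 (SE 0.47, adjusted p = 0.00141; -2.52 without replicate 4). All 4 stretched libraries at 6 h lay below the lowest non-stretched library of that time, at 5.13 CPM. Egr1, a zinc finger factor, read 948, 384, 379 and 378 CPM at 1 h and 125, 150, 124 and 152 CPM at 6 h. Its log2 fold change was -1.92 (SE 0.29, adjusted p = 0.00171; -1.46 without replicate 4), and its 6 h libraries too lay below all non-stretched ones, which spanned 188.1 to 206.5 CPM. By edgeR's test in the model of 16 libraries, the effect of stretching at 6 h was not called for either gene. The log2 difference was -0.52 (SE 0.224, adjusted p = 0.126) for Egr1 and -0.43 (SE 0.385, adjusted p = 0.492) for Fos. That model takes the spread of a gene from the libraries of both hours, 1 h replicate 4 included. The 6 h libraries were not tested alone.

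Nr4a1 (chr15:101254269-101274795), an orphan nuclear receptor, read 178, 49.2, 48.3 and 46.3 CPM at 1 h and 17.35, 19.21, 17.03 and 17.06 CPM at 6 h, a log2 fold change of -2.18 (SE 0.42, adjusted p = 0.00513; -1.44 without replicate 4). The 3 other 1 h libraries agreed within a few CPM, and replicate 4 alone was far higher. Its promoter is shown because the short sequence TGACG, the core of the site that cAMP-responsive factors bind, occurs in it 4 times. Capitals mark TGACG on either strand, and the sequence is the 250 bases before the RefSeq start at chr15:101266596-101266845 (GRCm38.p6, plus strand), a start that lies inside the gene as GENCODE draws it.
Nr4a1: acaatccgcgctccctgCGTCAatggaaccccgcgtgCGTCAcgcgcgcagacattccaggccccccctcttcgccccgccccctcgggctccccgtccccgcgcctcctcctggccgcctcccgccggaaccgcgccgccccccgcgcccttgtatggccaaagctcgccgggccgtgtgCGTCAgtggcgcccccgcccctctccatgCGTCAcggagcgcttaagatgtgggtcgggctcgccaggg
TGACG was found in 4 of the 7 AP-1 list promoters with a sequence (Fos, Fosb, Junb and Atf3) and in 8 of 15 in the Egr, Nr4a and Klf list, against 21.0% of all 27025 promoters, searched on both strands over 300 bases. It was about as frequent in the sterol list, with 8 of 18, so the match describes these promoters and does not set the early genes apart.

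Other early regulators followed. Egr2 fell by 1.77 on the log2 scale (adjusted p = 0.0165), but by 0.98 without replicate 4, whose 109 CPM compared with 26.4 to 29.8 CPM in the other 1 h libraries, and the call was lost without 6 h replicate 7. Atf3, a stress-responsive factor, fell by 1.65 (1.08 without replicate 4), Csrnp1 by 1.56 (1.04), Ier3 by 1.54 (1.05), Myc by 1.27 (0.89), the antiproliferative gene Btg2 by 1.24 (0.88) and Ier2 by 1.08. Junb fell by 0.75 (adjusted p = 0.025), a call that was lost without 1 h replicate 4, where the log2 fold change was -0.43, and on leaving out any single 6 h replicate. It also had a 3 h mean of 312 CPM, above its 1 h mean of 291 CPM. Ier5 fell by 0.59 and was not called without replicate 4. Ier5l went the other way, from a mean of 21.1 CPM at 1 h to 35.6 CPM at 6 h (log2 fold change 0.76, adjusted p = 0.00299), and at 1 h its stretched libraries all lay below the non-stretched ones.

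**Figure D3:**
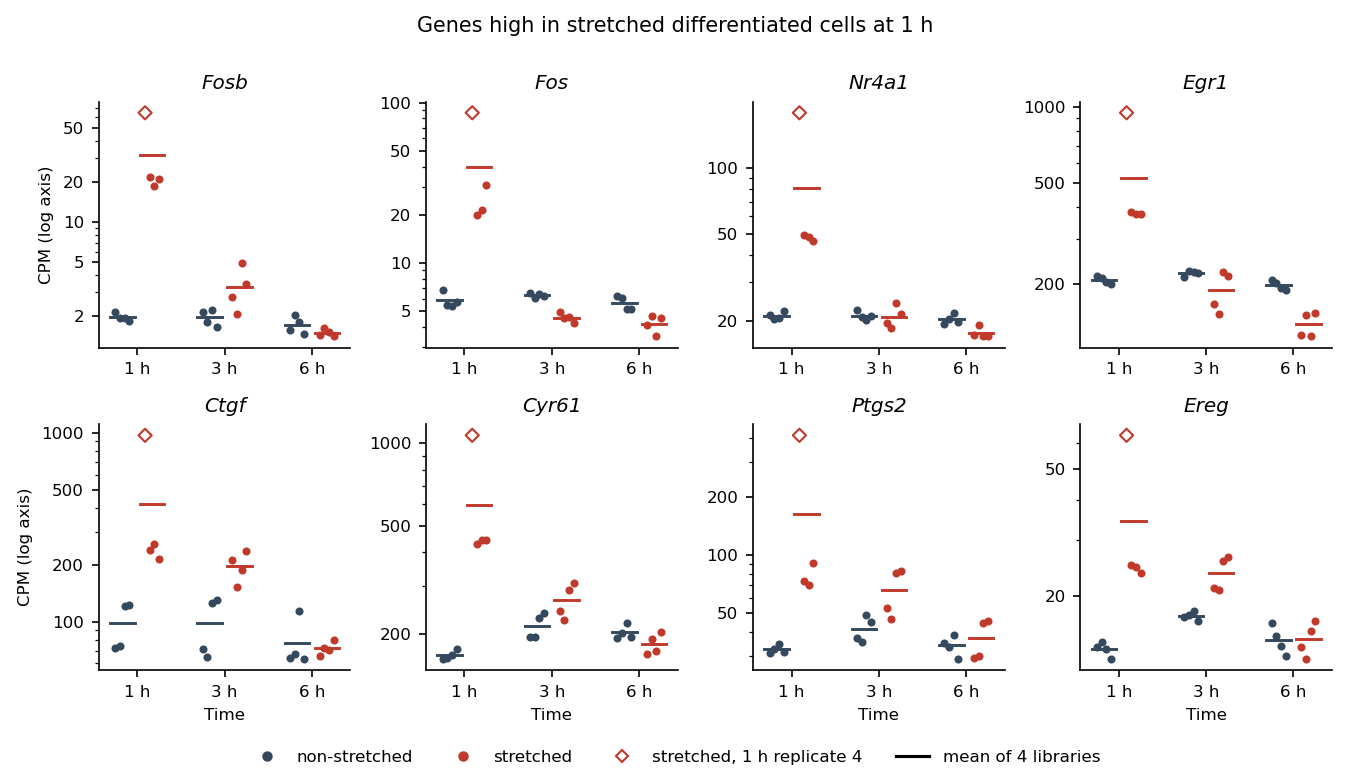
CPM on a log axis for 8 genes in non-stretched (dark) and stretched (red) differentiated cells at 1, 3 and 6 h, 1 point a library, with the mean of 4 libraries as a bar and 1 h replicate 4 as an open diamond. In every panel the stretched 1 h libraries lie above the other groups of that time, and replicate 4 lies highest, at 65.0 CPM for Fosb and 1069 CPM for Cyr61.

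Secreted factors and their feedback regulators fell with the early factors. Ctgf (chr10:24595442-24598683) and Cyr61 (chr3:145646976-145649981) encode matricellular proteins and are targets of YAP. Ctgf read 970, 239, 257 and 216 CPM at 1 h and 65.9, 72.2, 70.7 and 79.7 CPM at 6 h, a log2 fold change of -2.54 (SE 0.46, adjusted p = 0.00364; -1.72 without replicate 4). Its groups did not overlap, and the 6 h libraries lay within the non-stretched range of 63.4 to 114 CPM. Cyr61 read 1069, 427, 444 and 444 CPM at 1 h and 170, 193, 174 and 204 CPM at 6 h (-1.68, SE 0.28, adjusted p = 0.00251; -1.24 without replicate 4). At 3 h Ctgf read 153 to 236 CPM against 64.8 to 129 CPM in non-stretched cells, and Cyr61 225 to 307.5 CPM against 195 to 239 CPM, which overlapped. No test was run at 3 h.

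Over the whole list of YAP and TEAD targets, 3 of 15 were downregulated and 0 upregulated, with a median of -0.13. The remaining called member, Ankrd1, a titin-binding protein of the sarcomere, fell by 0.70 from a mean of 948.9 to 582.5 CPM, and was not called without replicate 4 (-0.55). The other 12 members, among them Amotl2, Axl and Tead1, were not called in either direction.

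Ligands of the EGF receptor split. Ereg fell by 1.21 (0.73 without replicate 4), Hbegf by 1.14 (0.86) and Areg by 1.06 (0.69), while Tgfa, at means of 0.48 and 0.92 CPM, rose by 0.94 (adjusted p = 0.0258). Hbegf stood at 35.6 to 45.1 CPM at 3 h, above 3 of the 4 libraries at 1 h. It then fell to 14.5 to 17.2 CPM at 6 h, below all non-stretched libraries of that time. By edgeR's test its effect of stretching at 6 h was not called (-0.35, adjusted p = 0.176). That test used the model of 16 libraries, whose spread includes 1 h replicate 4. The Areg call was lost without 6 h replicate 7 or 9 and the Tgfa call without 1 h replicate 7 or 8 or 6 h replicate 7, 9 or 10, with log2 fold changes from -1.23 to -0.69 and from 0.75 to 1.17 over the 8 fits that each left out a library. Of 11 tested members of the list, receptors included, 3 fell and 1 rose, with a median of -0.16. Over all genes 3.19% fell and 2.31% rose. Among feedback inhibitors of ERK signalling, 2 of 16 fell: Errfi1, which inhibits the EGF receptor (-1.30; -0.83 without replicate 4), and the MAP kinase phosphatase Dusp1 (-0.77; -0.60). The list's median was -0.17, and Spry and Spred genes were not called. The 2 calls are 12.5% of this list.

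Of 17 cytokine, chemokine and prostaglandin genes, 7 were downregulated (41.2%, against 3.19% of all genes) and 0 upregulated, with a median of -0.27. Without replicate 4, 7 remained downregulated in number. Ptgs2 (chr1:150100031-150108227), the inducible enzyme of prostaglandin synthesis, read 414, 73.6, 69.7 and 91.0 CPM at 1 h and 29.53, 29.98, 44.37 and 45.69 CPM at 6 h. The groups did not overlap, but the log2 fold change of -2.11 (SE 0.55, adjusted p = 0.0198) shrank to -1.06 without replicate 4, and the call was lost without 6 h replicate 7 or 8. Il6 fell by 2.92 (1.89 without replicate 4) at a low level, from 3.05, 0.62, 0.51 and 0.58 CPM at 1 h to at most 0.16 CPM at 6 h. Lif, a cytokine of the same family, fell from a mean of 24.0 to 10.4 CPM (-1.20, adjusted p = 0.00135; -1.0). Socs3, a feedback inhibitor of these receptors, fell by 1.43 (0.62 without replicate 4) and the chemokine Cxcl1 by 1.63 (0.74). The Cxcl1 libraries of 1 h and 6 h overlapped. Against the non-stretched change, no difference was called by edgeR's test for Il6 (-2.43, adjusted p = 0.0877), Socs3 (-1.22, adjusted p = 0.144) or Cxcl1 (-1.43, adjusted p = 0.205). The Socs3 call was lost on leaving out any single 6 h replicate, and so was the Cxcl1 call, which was also lost without 1 h replicate 9. Cxcl5 (-0.99) and Nfkbiz (-0.84) completed the list.

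Sgk1 and Edn1 were also among the 12 largest falls. Sgk1 (chr10:21882184-21999903), a kinase that regulates ion channels, read 206, 110, 109 and 109 CPM at 1 h and 37.4, 37.6, 40.0 and 42.1 CPM at 6 h (-1.76, SE 0.20, adjusted p = 0.000531; -1.47 without replicate 4). Its 3 h libraries were already at 45.2 to 52.3 CPM, near the non-stretched 43.1 to 47.4 CPM of that time. Edn1, which encodes the vasoconstrictor endothelin-1, fell by 2.03 (1.26 without replicate 4) from a mean of 4.16 to 1.00 CPM. Smad7, an inhibitor of TGF-beta signalling, was not among the 12 but fell by 1.15 (0.90). In the TGF-beta and BMP list Smad7 and Inhbb (-0.60) were the 2 of 25 members called, with a median of -0.22. They are 8.0% of the list, where 3.19% of all genes fell, and 2 calls do not set it apart.

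A second group of genes started below the non-stretched level. Numbered zinc finger genes (Zfp and a number), most of which encode DNA-binding repressors, formed the largest such group: 48 of 302 tested (15.9%) were upregulated against 2.31% of all genes, and 1, Zfp580, was downregulated, with a median log2 fold change of 0.24. Without replicate 4, 47 rose and 1 fell. In non-stretched cells the median was 0.01. At 1 h, 97 of the 302 genes had all stretched libraries below all non-stretched ones and 7 had them all above, where 3.72% and 2.7% of all genes did. Of the 48 upregulated genes 37 were among the 97, though the same 1 h libraries took part in those calls. At 6 h 59 were above and 20 below, shares of the list that compare with 14.0% and 12.3% of all genes. The 3 h level lay between 1 h and 6 h for 46 of the 48, and for 293 of all 356 upregulated genes. The share over all genes tested was not computed.

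Zfp866 (chr8:69761326-69791178) read 7.014, 10.01, 8.955 and 8.643 CPM at 1 h and 22.7, 21.4, 22.3 and 21.8 CPM at 6 h, a log2 fold change of 1.35 (SE 0.093, adjusted p = 0.000155; 1.27 without replicate 4). Non-stretched libraries lay between 18.8 and 21.5 CPM at both times, so the stretched level at 1 h was under that range, and at 6 h its lowest library (21.36 CPM) matched the highest non-stretched one (21.35 CPM). The difference from the non-stretched change was 1.33 (adjusted p = 1.34e-05), the lowest adjusted p of that test. Zfp658 rose by 1.18 from a mean of 2.36 to 5.35 CPM and Zfp108 by 1.18 from 1.21 to 2.76 CPM, both from below the non-stretched level. Zfp60 rose by 0.89 from 14.2 to 26.3 CPM. These genes resemble one another in sequence: 8.49% of the 31-base stretches of Zfp866, 21.56% of those of Zfp108 and 13.08% of those of Zfp60 also occur in other genes, which leaves part of their counts to the division of shared reads. Zfp580 fell by 0.67 (adjusted p = 0.0169), a call lost without 6 h replicate 7 or 9 (log2 fold changes from -0.78 to -0.55 over the 8 fits).

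Regulators other than zinc fingers shared the low start. Kctd21, an adaptor of cullin ubiquitin ligases, had the largest rise named by the rule: 1.81, 2.07, 1.75 and 2.77 CPM at 1 h and 6.28, 5.59, 5.23 and 5.34 CPM at 6 h (1.42, SE 0.15, adjusted p = 0.000428; 1.36 without replicate 4), against 3.55 to 4.35 CPM in non-stretched cells at 1 h. Six4, a homeobox factor of muscle development, rose from a mean of 41.2 to 83.3 CPM (1.02, adjusted p = 0.000488), with non-stretched libraries between 64.8 and 71.6 CPM at 1 h. Clk1, a kinase that phosphorylates SR splicing proteins, read 34.3, 28.9, 29.1 and 41.0 CPM at 1 h and 62.1, 59.2, 64.4 and 61.0 CPM at 6 h (0.89, SE 0.098, adjusted p = 0.0005). At 3 h Clk1 was already at 60.9 to 65.6 CPM. Non-stretched libraries at 1 h lay between 54.3 and 63.6 CPM, and the stretched libraries of 1 h all lay under them. Kbtbd8, also a cullin adaptor, rose by 1.26 from 3.14 to 7.49 CPM and Kbtbd11 by 1.27 from 21.6 to 52.1 CPM. Both overlapped the non-stretched libraries at 1 h and lay above all of them at 6 h.

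Genes of sterol synthesis rose together. The pathway builds cholesterol from acetyl-CoA through mevalonate and is induced by the factor SREBP-2 when membranes lack sterol. Of 26 members tested, 13 were upregulated and 0 downregulated, with a median log2 fold change of 0.58, and all 26 had a positive sign. Without replicate 4, 19 were upregulated and the median was 0.66. In that library the list was higher than in the other 1 h libraries, by a median log2 difference of 0.25 from the non-stretched mean against a lowest value of -0.14. In non-stretched cells the median change was 0.09. The change exceeded the non-stretched change for 7 members, including Stard4, which was not among the 13. At 6 h, 22 of the 26 had all stretched libraries above all non-stretched ones (14.0% of all genes did).

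Mvd (chr8:122433601-122443422), which decarboxylates mevalonate diphosphate, read 42.0, 33.9, 36.1 and 40.4 CPM at 1 h and 72.4, 71.5, 72.8 and 72.5 CPM at 6 h, a log2 fold change of 0.93 (SE 0.062, adjusted p = 0.000155; 0.98 without replicate 4). The 6 h libraries agreed within 2 CPM and lay above the non-stretched range of 39.7 to 51.8 CPM. Hmgcs1 (chr13:119690379-119708260), which makes HMG-CoA, read 442, 310, 299 and 356 CPM at 1 h and 533, 575, 550 and 590 CPM at 6 h (0.68, SE 0.11, adjusted p = 0.00225; 0.81). At 3 h Hmgcs1 was higher still, at 598 to 696 CPM. For 7 of the 13 upregulated members the 3 h mean was above the 6 h mean. Acat2, the thiolase of the first step, rose by 0.86 and Idi1, the isomerase, by 0.80, although 43.75% and 18.8% of their 31-base stretches occur in other genes too. Sqle, the squalene epoxidase, rose by 0.58, at the threshold, and was not called without 1 h replicate 7 or 8 or 6 h replicate 8 or 10 (0.52 to 0.67 over the 8 fits). Also among the 13 were Lss, Cyp51, Tm7sf2, Msmo1, Nsdhl, Hsd17b7 and Sc5d, with log2 fold changes from 0.59 to 0.79.

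The promoters of Mvd and Hmgcs1 are printed because CCAAT, the sequence bound by the factor NF-Y that acts beside SREBP, was found in 16 of the 18 sterol list promoters with a RefSeq sequence (88.9%), against 37.9% of all 27025. The motifs were picked with these matches known. Capitals mark CCAAT on either strand and, in Hmgcs1, 1 match of the sterol element TCACNCCAC, which 1.22% of all promoters hold and no other sterol list member does. Each is the 250 bases before the RefSeq start, at chr8:122443423-122443672 (minus strand) and chr13:119690101-119690350 (plus strand) of GRCm38.p6.
Mvd: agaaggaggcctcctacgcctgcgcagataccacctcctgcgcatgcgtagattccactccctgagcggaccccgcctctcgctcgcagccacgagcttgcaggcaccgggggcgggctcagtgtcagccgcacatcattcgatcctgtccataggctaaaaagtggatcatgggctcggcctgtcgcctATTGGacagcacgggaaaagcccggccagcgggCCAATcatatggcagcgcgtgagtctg
Hmgcs1: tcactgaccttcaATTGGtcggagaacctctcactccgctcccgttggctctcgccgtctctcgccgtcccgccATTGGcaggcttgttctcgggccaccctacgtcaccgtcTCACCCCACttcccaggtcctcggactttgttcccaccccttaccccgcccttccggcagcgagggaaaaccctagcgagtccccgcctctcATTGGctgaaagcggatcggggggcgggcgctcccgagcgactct

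Fatty acid synthesis moved less. Of 13 members tested 3 were upregulated (23.1%) and 0 downregulated, with a median of 0.25: Scd2, a desaturase, rose by 0.69 from a mean of 2099 to 3384 CPM, Acly, which supplies acetyl-CoA, by 0.64 from 246 to 382 CPM, and the elongase Elovl6 by 0.60. The Elovl6 call was lost without 1 h replicate 7 or 8 or 6 h replicate 9 (0.52 to 0.73). The difference from the non-stretched change was 0.47 for Acly (adjusted p = 0.00608) and 0.45 for Scd2 (adjusted p = 0.0466), which passed on p but not on size, and 0.46 for Elovl6 (adjusted p = 0.117). The 8 LXR target genes tested had 0 calls and a median of 0.07.

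**Figure D4:**
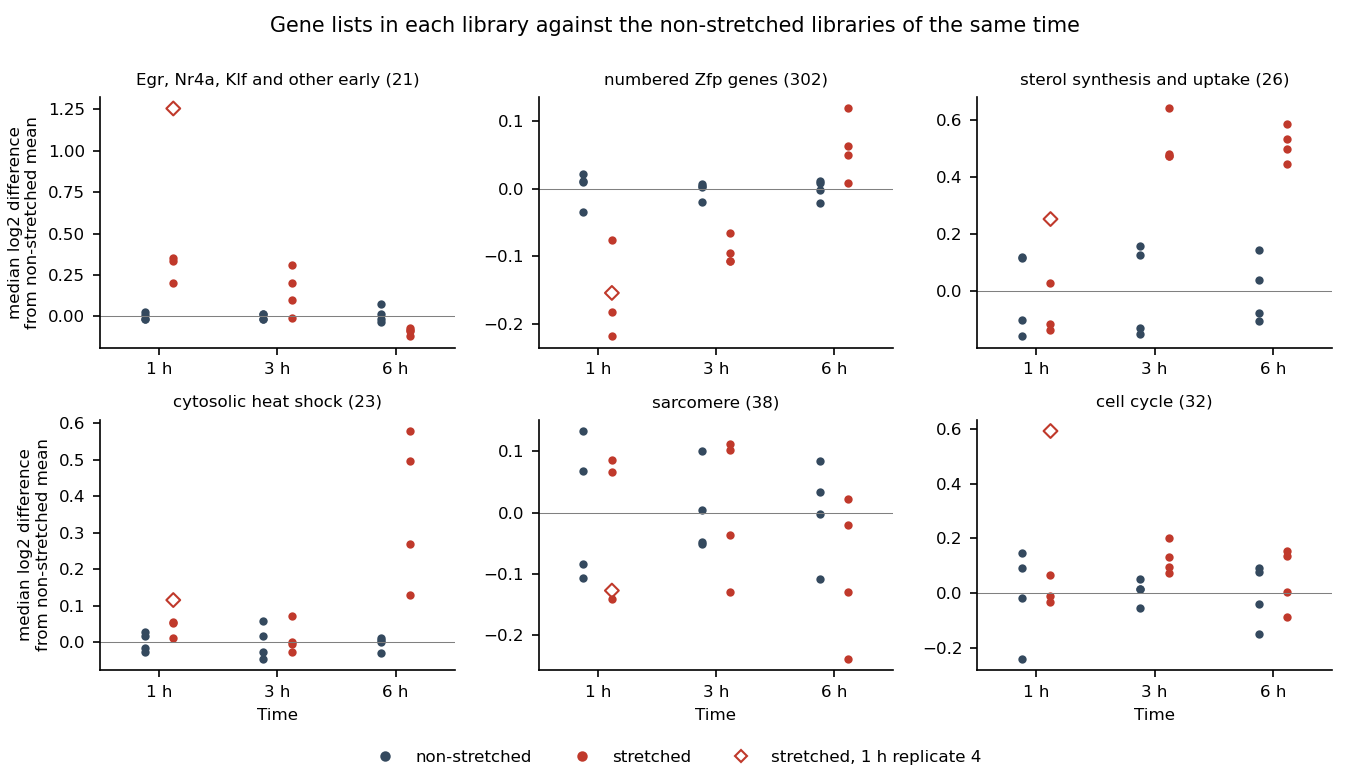
For 6 gene lists (number of genes in brackets), each point is 1 library, plotted as the median over the list of its log2 level minus the mean of the non-stretched libraries of the same hour. Early factors are highest at 1 h, numbered Zfp genes are lowest at 1 h, sterol genes are raised at 3 h and 6 h (0.45 to 0.59 at 6 h), heat shock genes only at 6 h (0.13 to 0.58), and the sarcomere list stays around 0.

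Stress genes formed the next group. Ddit3 (chr10:127290774-127296288), the stress factor CHOP, read 11.8, 13.0, 13.5 and 13.6 CPM at 1 h and 27.9, 25.5, 38.8 and 33.4 CPM at 6 h, a log2 fold change of 1.28 (SE 0.12, adjusted p = 0.000384; 1.24 without replicate 4). The non-stretched libraries stayed between 13.8 and 17.7 CPM, and the 3 h libraries, at 17.7 to 20.8 CPM, stood between. Of 24 ATF4 targets, a group induced when amino acids are short or translation is inhibited, 4 rose (16.7%), 1 fell and the median was 0.24. Cebpg, a dimer partner of ATF4, rose by 0.85, Ddit4, an inhibitor of mTORC1, by 0.69 and the pseudokinase Trib3 by 0.85. Cebpg and Ddit4 started low. By edgeR's test their effects of stretching at 1 h were -0.41 (adjusted p = 0.00352) and -0.46 (adjusted p = 0.0134). At 6 h they were 0.31 (adjusted p = 0.00612) and 0.19 (adjusted p = 0.181), and Ddit4 already had a 3 h mean of 26.97 CPM, against 26.67 CPM at 6 h. Ppp1r15a, which reverses the block on translation, fell by 0.72 from a mean of 67.8 to 40.9 CPM (adjusted p = 0.000488), having been above all non-stretched libraries at 1 h. The amino acid genes of the list, such as Asns, Psat1 and Phgdh, were not called.

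Trib3 reached 9.07 and 8.93 CPM in the 6 h libraries of B25 and 16.6 and 18.1 CPM in those of B28, so its rise was a log2 difference of 0.27 within B25 and 1.05 within B28. Its call was lost without 1 h replicate 7 or 8 or 6 h replicate 9 or 10 (0.66 to 1.00). The 8-base element TGATGNAA that ATF4 and its partners bind was present in 7 of 23 promoters of the ATF4 list (Trib3, Asns, Chac1, Slc7a11, Nupr1, Fgf21 and Pycr1) and in 4.06% of all promoters. In Trib3 it lies just after the RefSeq start, on the opposite strand, and 30 bases around it (chr2:152344028-152344057, minus strand) are shown with the match in capitals.
Trib3: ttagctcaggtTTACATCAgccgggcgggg
Among the 4 risers of this list, Ddit3, Cebpg and Ddit4 had no match in the window.

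Chaperones of the heat shock response stood out at 6 h. Hsph1 (chr5:149614287-149636376), which recharges Hsp70 with nucleotide, read 157, 160, 155 and 163 CPM at 1 h and 396, 239, 377 and 220 CPM at 6 h (0.96, SE 0.17, adjusted p = 0.00364; 0.95 without replicate 4). The 6 h libraries fell into a higher pair, replicates 7 and 9, and a lower pair, replicates 8 and 10, each pair with 1 library of B25 and 1 of B28, and all 4 lay above the non-stretched 161 to 170 CPM. Hspa1b, an inducible Hsp70, showed the same order, with 260, 140, 241 and 116 CPM at 6 h after 82.5 to 90.0 CPM at 1 h (1.14, SE 0.22, adjusted p = 0.00554), but 68.0% of its 31-base stretches are shared with another gene and its count depends on how reads were divided. At 3 h neither stood above the non-stretched libraries, Hsph1 at 137 to 158 CPM against 147 to 166.5 CPM and Hspa1b at 83.4 to 96.2 CPM against 85.1 to 98.6 CPM.

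Of 23 heat shock genes tested, these 2 were called (8.7%, against 2.31% of all genes), 22 had a positive sign, the median was 0.33 and 18 had all stretched libraries above the non-stretched ones at 6 h, where 14.0% of all genes did. Without replicate 4, 4 were called. The heat shock element, read as 3 alternating GAA units, was found in 3 of 18 promoters of the list (Hsph1, Hspe1 and Chordc1) and in 0.529% of all promoters. In Hsph1 it lies shortly after the RefSeq start, on the opposite strand, shown in capitals within 30 bases (chr5:149636287-149636316, minus strand).
Hsph1: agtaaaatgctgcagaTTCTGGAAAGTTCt
Chaperones of the endoplasmic reticulum had 0 of 21 members called and a median of 0.23, with 12 of 21 above all non-stretched libraries at 6 h (14.0% of all genes). Their 6 h libraries were split too. The median log2 difference from the non-stretched mean was 0.492 and 0.596 in replicates 7 and 9, and 0.175 and 0.15 in replicates 8 and 10.

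Other late risers belong to no single pathway. Ak4, a mitochondrial adenylate kinase, rose by 1.22 from 2.32 to 3.37 CPM at 1 h to 5.61 to 6.85 CPM at 6 h, and 11.63% of its sequence stretches are shared with other genes. Of 31 genes of glycolysis and hypoxia, Ak4 and Ankrd37 (0.65) rose, Slc2a3 fell (-0.90, not called without replicate 4) and the median was 0.13. With 6.45% up and 3.23% down, against 2.31% and 3.19% of all genes, these calls do not set the list apart. The serotonin receptor Htr1b read 17.7, 6.70, 6.71 and 9.21 CPM at 1 h and 25.2, 21.3, 31.1 and 25.1 CPM at 6 h (1.36, SE 0.28, adjusted p = 0.00641), and here replicate 4, the highest of its group, made the rise smaller: it was 1.77 without it. Slc5a3, a carrier of the osmolyte myo-inositol, rose by 1.16 from a mean of 39.9 to 88.9 CPM, the ubiquitin ligase Trim65 by 1.19 from 4.98 to 11.4 CPM, and Trim65 was still at a mean of 4.98 CPM at 3 h. The metallothioneins Mt1 (0.62) and Mt2 (0.64) rose, 2 of 6 genes tested in the zinc and copper list, where 2.31% of all genes rose. Mt1 was not called without replicate 4.

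A further group ended below the non-stretched cells. Srsf5 (chr12:80945504-80950507), an SR splicing protein, read 255.4, 240.6, 234.5 and 238.8 CPM at 1 h and 69.4, 95.2, 82.0 and 118 CPM at 6 h, a log2 fold change of -1.41 (SE 0.13, adjusted p = 0.000384; -1.38 without replicate 4). At 1 h its stretched libraries lay above the non-stretched 167 to 203 CPM, at 3 h they read 225 to 263 CPM, and at 6 h they lay below the non-stretched 131 to 173 CPM. The difference from the non-stretched change was -1.0 (adjusted p = 0.00318). Of the 20 SR proteins and their kinases tested, Srsf5 alone fell, Clk1 and Rsrp1 (0.85, adjusted p = 0.00528) rose and the other 17 were not called, with a median of 0.10. Over all genes 3.19% fell and 2.31% rose. Some 14.08% of the 31-base stretches of Srsf5 occur in other genes.

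Some targets of the aryl hydrocarbon receptor fell. The receptor binds flat aromatic compounds and induces enzymes that oxidise them, and Ahrr is its feedback repressor. Of 7 genes 3 fell and 4 were not called, where 3.19% of all genes fell, with a median of -0.46 (-0.47 without replicate 4). Cyp1b1 (chr17:79701537-79715061) read 259.1, 285.4, 255.6 and 223.6 CPM at 1 h and 122, 126, 154 and 148 CPM at 6 h (-0.89, SE 0.093, adjusted p = 0.000434; -0.89 without replicate 4), and was already at 132 to 216 CPM at 3 h. Ahrr fell from 13.4, 8.55, 8.63 and 6.97 CPM to 2.34, 2.41, 3.72 and 3.90 CPM (-1.60, SE 0.23, adjusted p = 0.00144; -1.38). Cyp1a1 fell from 4.43, 2.67, 2.86 and 0.92 CPM to 0.29, 0.54, 0.48 and 0.58 CPM (-2.51, SE 0.43, adjusted p = 0.00291; -2.18).

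The experiments differed for these genes. In non-stretched cells at 1 h Cyp1a1 read 2.95 and 3.14 CPM in B25 and 0.39 and 0.46 CPM in B28, and its fall in stretched cells was a log2 difference of -2.74 within B25 and -0.79 within B28. For Ahrr the 2 values were -1.85 and -0.87, and for Cyp1b1 -1.13 and -0.57. The difference from the non-stretched change was called for Ahrr (-1.57) and Cyp1b1 (-0.90) but not for Cyp1a1 (-2.54, adjusted p = 0.16). Plekha6 also differed between the experiments, with 5.97, 10.1, 10.3 and 3.75 CPM at 1 h and 2.76, 3.60, 1.78 and 1.71 CPM at 6 h (-1.61, adjusted p = 0.00755; -1.71 without replicate 4), and with log2 differences of -1.69 within B25 and -1.09 within B28.

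**Figure D5:**
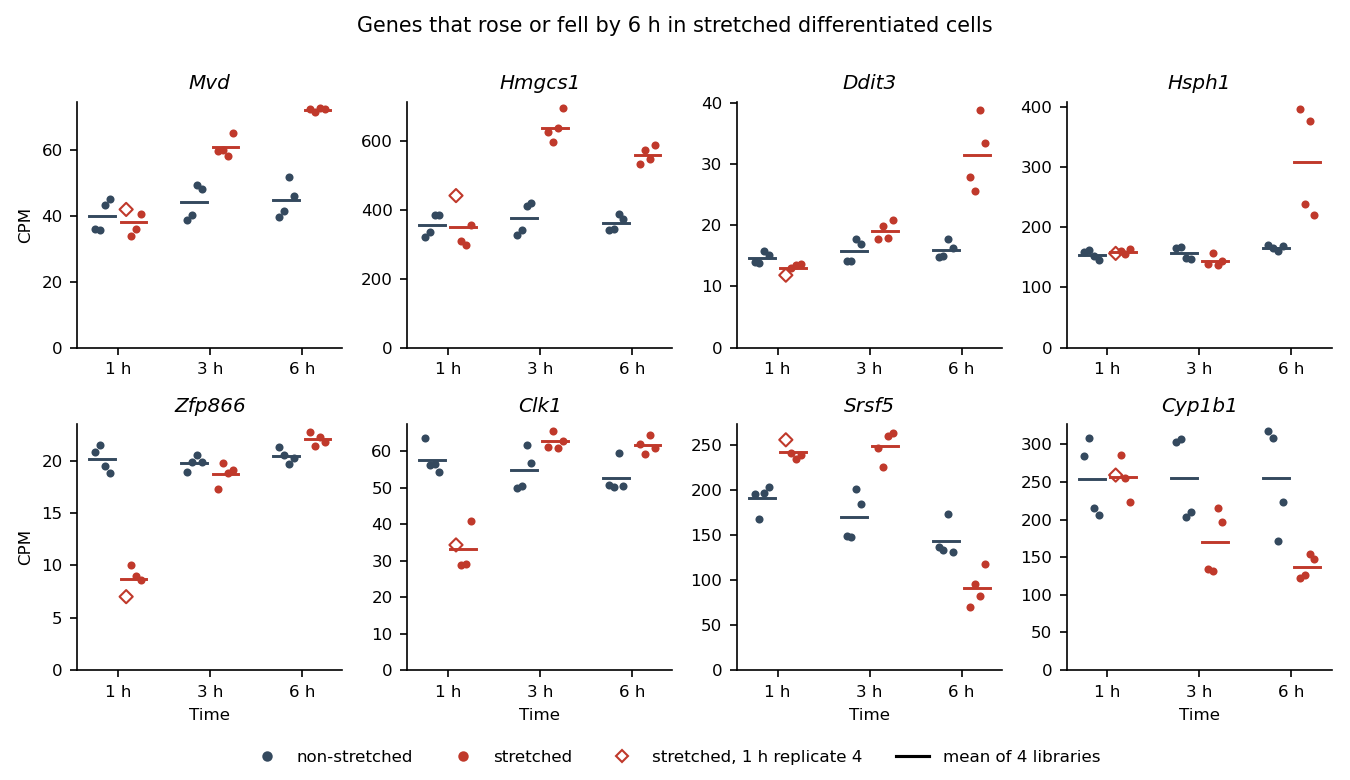
CPM for 8 genes, drawn as in the plot of early genes but on linear axes that start at 0. Mvd and Hmgcs1 are raised at 3 h and 6 h, Ddit3 and Hsph1 mainly at 6 h, Zfp866 and Clk1 are low at 1 h only (mean 8.66 and 33.3 CPM), and Srsf5 and Cyp1b1 are low at 6 h (mean 91.2 and 137 CPM).

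Some cycling-cell genes fell in stretched cells. Of 32 cell cycle and replication genes 10 were downregulated (31.2%, against 3.19% of all genes) and 0 upregulated, with a median of -0.43, and all 32 had a negative sign. In non-stretched cells the median was -0.35 with 0 calls, and 0 of the 32 differed between the conditions. Without replicate 4, 3 of 32 were called (Top2a, Aurkb and Tk1) and the median was -0.27. In that library the list stood at a median log2 difference of 0.59 from the non-stretched mean, with the other libraries of its group reaching down to -0.03. Thymidine kinase (Tk1) read 32.6, 20.6, 22.7 and 23.7 CPM at 1 h and 14.4, 17.1, 11.0 and 12.1 CPM at 6 h (-0.86, SE 0.16, adjusted p = 0.00446; -0.71). Mki67 read 226, 132, 101 and 118 CPM and then 85.4, 83.3, 104 and 81.9 CPM, with overlapping groups, and its call (-0.70, adjusted p = 0.037) was lost without replicate 4 (-0.40) or 7 at 1 h and on leaving out any single 6 h replicate. Fewer cells of a type and less RNA per cell cannot be told apart in these bulk libraries.

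Genes of muscle structure gave no calls. Of 38 sarcomere genes 0 were called, with a median of -0.03. There were also 0 calls among 12 acetylcholine receptor and junction genes and 18 actin and SRF targets of the cytoskeleton. The 15 ion channels and 21 adhesion genes had 0 calls too, and the medians of these lists lay between -0.14 and 0.04. Of 16 myogenic regulators 4 were called, 12.5% of the list in each direction, where 2.31% of all genes rose and 3.19% fell. Myf5, an early determination factor, rose from a mean of 19.4 to 30.9 CPM (0.68, adjusted p = 0.000531), above all non-stretched libraries at 6 h, and Six4 rose as above. Id2 (-1.0) and Id3 (-1.04), which oppose myogenic factors, fell from means of 21.6 and 20.9 to 10.7 and 10.1 CPM. At 6 h both lay below all non-stretched libraries. Klf15, a factor linked to muscle atrophy and measured at means of 0.12 and 0.32 CPM, rose by 1.41 and Cited2 fell by 0.66, 2 of the 17 atrophy genes tested. With 5.88% called each way, these single calls do not set the list apart from all genes.

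In the matrix list 3 of 30 fell, with a median of -0.28. Thbs1 (thrombospondin-1) fell by 0.74 from a mean of 2443 to 1458 CPM and was not called without replicate 4 (-0.53). Plau, the urokinase, fell by 0.83 (0.58 without replicate 4) from 225 to 126 CPM, and Cilp by 0.92 (0.94) from 16.8 to 8.80 CPM, a level below all non-stretched libraries. Of 21 Wnt and Notch genes Nkd2 (-1.07) and Wnt11 (-1.02) fell, of 19 clock genes Hlf (-1.06) and Bhlhe40 (-0.77), and of 9 long noncoding RNAs Mir22hg (-1.13). With 3.19% of all genes downregulated, 1 or 2 calls in lists of this size do not set the lists apart. Ribosome biogenesis, ribosomal proteins, NRF2 targets and other muscle RNA-binding proteins had 0 calls in 25, 80, 16 and 20 genes. In the ribosome biogenesis list 22 of 25 had a positive sign, with a median of 0.12, and 20 of 25 had all stretched libraries above the non-stretched ones at 6 h, where 14.0% of all genes did.

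The largest differences between the stretched and the non-stretched change named by the rule were -4.20 for Fosb, -3.19 for Fos, -2.20 for Ctgf and -2.18 for Ptgs2 on the lower side, and 1.33 for Zfp866, 1.21 for Zfp108, 1.19 for Ak4 and 1.18 for Kbtbd8 on the upper side. These values include stretched 1 h replicate 4 and are not given without it. The predicted genes 2210418O10Rik and Gm14296 also met the rule, but all 31-base stretches of the first and 61.5% of those of the second occur in other genes, and their libraries overlapped between 1 h and 6 h. Gm14296 was called as upregulated in stretched cells (1.23, adjusted p = 0.0424), a call lost on leaving out any library but 1 h replicate 7, and 2210418O10Rik was not called there (-2.91, adjusted p = 0.0561).

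Stretched myoblasts, the undifferentiated stage, changed over the same hours too. Their table was scaled on its own, and no test was run between the stages. With 14909 genes tested, 590 (3.96%) were upregulated and 233 (1.56%) downregulated. Of the 332 genes upregulated in differentiated cells and tested in myoblasts, 206 were upregulated there (62.0% of these and 34.9% of the 590), and of 394 downregulated genes 82 were downregulated (20.8% of these and 35.2% of the 233). Among numbered zinc finger genes 74 of 301 rose in myoblasts, and 44 of the 48 that rose in differentiated cells were among them (91.7% of the 48 and 59.5% of the 74).

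Of the sterol genes 18 of 26 rose in myoblasts, with a median of 0.63, and Mvd by 1.38 there. Endoplasmic reticulum chaperones had 11 of 21 members called in myoblasts with a median of 0.62, against 0 of 21 and 0.23 in differentiated cells. Fosb fell by 2.27 and Fos by 1.94 in myoblasts, Egr1 by 1.91, Ctgf by 1.90 and Srsf5 by 0.99, each with an adjusted p of 0.0001 or less. Some genes were not called in myoblasts: the log2 fold change was -0.36 (SE 0.295, adjusted p = 0.374) for Ahrr, -0.30 (SE 0.334, adjusted p = 0.524) for Cyp1b1, -0.04 (SE 0.303, adjusted p = 0.94) for Trib3 and -0.02 (SE 0.051, adjusted p = 0.745) for Top2a. Whether any of these changes differs between the stages was not tested.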

How the data were processed

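C2C12 cells, differentiated or kept as myoblasts, were stretched or left non-stretched for 1, 3 or 6 h, with 4 libraries in each group. The labels call the molecule nuclear RNA, while the study's methods describe an mRNA kit. The authors deposited 1 table of read counts per gene symbol for each stage, made with STAR and Salmon on mm10, per the labels, and DESeq2 is also named there. The counts are whole numbers, not normalized, for 47480 symbols.

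Genes passed edgeR's filterByExpr and were scaled by TMM. 6 h was tested against 1 h by edgeR's quasi-likelihood test on 8 libraries, with Benjamini-Hochberg adjustment over all genes tested. Calls needed an adjusted p below 0.05 and a log2 fold change reaching 0.58 in either direction. The same test was run in non-stretched cells and in stretched myoblasts, and the difference of the 2 time changes was tested as an interaction on 16 libraries. Effects of stretching at 1 h and at 6 h came from the same 16 libraries, 1 h replicate 4 included. CPM were scaled over the 24 libraries of the stage, and log2 levels used a prior count of 1. Counts of libraries between 55358603 and 69053808 leave genes of few reads imprecise: 142 upregulated and 198 downregulated genes had a mean under 100 counts. The code was tested on simulated counts.

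The members and gene lists were chosen with earlier results of these data known. Named genes were the 12 largest rises and the 12 largest falls among called genes averaging 100 counts or more, no overlap between the times and the same call without 1 h replicate 4, the 5 largest positive and 5 largest negative interactions with that mean, and list members. Sequence shared with other genes is the share of 31-base stretches of GENCODE vM21 transcripts that also occur in another gene. Promoters came from RefSeq (GRCm38.p6) and were searched on both strands. Alternatives were RLE scaling, DESeq2, other filters, other samples in the fit, the experiment or replicate as a term, other fold-change rules and each library left out. R 4.3.3, edgeR 4.0.16, limma 3.58.1 and DESeq2 1.42.0 were used.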

Additional observations from a re-analysis of the deposited data

Results flagged for a closer look

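In 304 groups of 4 libraries, made of 76 named genes in 4 groups each, 39 had a highest or lowest library that stood apart from the other 3 by more than Dixon's limit, which chance passes in about 1 in 20 groups. In 24 of the 39 that library was stretched 1 h replicate 4. Its levels in CPM were the highest of the group for Fosb at 64.99, Fos at 86.86, Ctgf at 969.6, Nr4a1 at 177.5, Ptgs2 at 413.9, Edn1 at 9.408, Egr1 at 947.7 and Egr2 at 109.2. The same held for Sgk1 at 206.4, Cyr61 at 1069, Atf3 at 44.48, Junb at 466, Csrnp1 at 56.32, Ier3 at 126.4, Myc at 138.6 and Btg2 at 121.1, and for Errfi1 at 368, Ereg at 63.52, Il6 at 3.049, Socs3 at 135.1, Smad7 at 51.77, Plau at 333.9 and Top2a at 220.9. For Zfp580 it was the lowest, at 3.273 CPM. This library is the only one of its experiment, and what sets it apart was not tested.

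The remaining cases were spread over other libraries. In non-stretched 6 h replicate 9 they were Ctgf at 113.7 CPM, Myc at 35.48 CPM, Srsf5 at 173.2 CPM, Clk1 at 59.48 CPM and Zfp60 at 22.63 CPM. In stretched 6 h replicate 8 it was Nr4a1 at 19.21 CPM. In non-stretched 6 h replicate 10 they were Kbtbd11 at 40.38 CPM, Hbegf at 17.74 CPM and Id3 at 19.57 CPM. In stretched 6 h replicate 10 it was 2210418O10Rik at 3.962 CPM. In non-stretched 6 h replicate 7 it was Csrnp1 at 12.27 CPM. In non-stretched 1 h replicate 9 they were Il6 at 0.5696 CPM and Cxcl1 at 1.533 CPM. In non-stretched 1 h replicate 8 it was Rsrp1 at 92.72 CPM. In stretched 6 h replicate 9 it was Mki67 at 104 CPM.

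The change from 1 h to 6 h differed with stretching, tested as an interaction by edgeR's quasi-likelihood method, for 171 genes in the positive and 175 in the negative direction, and for 55 of the 76 named genes. The log2 difference, stretched minus non-stretched, was positive for Gm14296 1.99, Zfp866 1.33, Zfp108 1.21, Ak4 1.19, Kbtbd8 1.18, Kctd21 1.17, Ddit3 1.15, Clk1 1.02, Zfp658 0.98, Trim65 0.95, Kbtbd11 0.92 and Hspa1b 0.91, and for Six4 0.91, Hsph1 0.85, Rsrp1 0.83, Slc5a3 0.79, Zfp60 0.79, Mvd 0.76, Idi1 0.73, Acat2 0.72, Cebpg 0.72, Hmgcs1 0.66, Ddit4 0.66 and Ier5l 0.65. It was negative for 2210418O10Rik -4.94, Fosb -4.20, Fos -3.19, Ctgf -2.20, Ptgs2 -2.18, Nr4a1 -2.13, Cyr61 -1.96, Egr1 -1.85, Egr2 -1.73 and Sgk1 -1.62. Smaller negative differences were Csrnp1 -1.58, Ahrr -1.57, Ier3 -1.53, Atf3 -1.37, Errfi1 -1.32, Ereg -1.31, Smad7 -1.29, Myc -1.16, Btg2 -1.14 and Id3 -1.10, and Lif -1.09, Srsf5 -1.0, Hbegf -0.90, Cyp1b1 -0.90, Id2 -0.86, Cilp -0.86, Dusp1 -0.85, Junb -0.81, Thbs1 -0.80, Ankrd1 -0.71 and Ppp1r15a -0.61. All of these passed an adjusted p of 0.05 in the fit across all genes. That fit held stretched 1 h replicate 4, and the values are not given without it. Named genes without such a call were Il6, Cxcl1, Socs3, Edn1, Areg, Tgfa, Plekha6, Htr1b, Trib3, Klf15 and Cyp1a1. The others without it were Sqle, Acly, Scd2, Elovl6, Myf5, Plau, Zfp580, Mki67, Top2a and Tk1.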

How the results depend on the processing

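The counts of upregulated and downregulated genes in stretched differentiated cells stayed within 1.5 times of 356 and 491 under DESeq2, relative log expression scaling, other filters on low counts, a model of all 24 libraries and the experiment as a covariate. With each library left out in turn, upregulated genes numbered 259 to 403 and downregulated genes 353 to 515. Without the fold-change cutoff the counts were 2150 and 1772, and with the cutoff inside the test (edgeR's glmTreat) 9 and 9, a stricter question by construction. For the difference from the non-stretched change these 2 settings gave 812 higher and 577 lower, then 1 and 1, and leaving out libraries gave 122 to 228 and 105 to 213. In stretched myoblasts they gave 3020 up and 2608 down, then 107 and 35, with 488 to 646 and 196 to 258 on leaving out libraries. The non-stretched counts of 0 and 0 became 3 and 21 with DESeq2, 2 and 11 with the experiment as a covariate, and 2 and 7 with no filter, and leaving out libraries gave 0 to 2 and 0 to 31. The cause of these shifts was not tested.

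Replicate numbers recur across times, but 3 same-numbered stretched pairs had deviations correlated between only -0.074 and 0.076, so the numbers were not taken to pair the samples. Same-numbered libraries do come from the same experiment, and non-stretched libraries of different numbers correlated at up to 0.199 within an experiment and down to -0.203 across experiments. With the replicate block, the counts were 339 and 417 in stretched cells, 0 and 0 in non-stretched cells, 215 and 243 for the difference and 556 and 210 in myoblasts. Over 1212 alternatives for the 76 named genes, 1072 kept direction and side of the threshold, 134 lost the call (64 of them under glmTreat), 6 gained it and 0 reversed.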
